A study of Mus musculus with 12 samples.

Results

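Complement is the plasma and tissue protein cascade that tags targets for uptake and calls in phagocytes, and 9 of its genes were followed here in MC38 tumors of mice treated with a plant fraction, an anti-PD-1 antibody or both. The set was chosen by gene symbol and holds the C1q chains C1qa, C1qb and C1qc, the components C2, C3, C4b and Cfb, and the anaphylatoxin receptors C3ar1 and C5ar1. Of these, C5ar1 was selected on its change in the combined group in these same tumors, so its values in Comb are a description and were given no test. Medians and counts of positive genes over the 9 genes include C5ar1, so they are descriptions too. All 9 were found among the 23282 entries of the gene table, and all 9 passed the filter on low counts that 13464 entries passed.

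RNA was sequenced from 12 tumors, 3 in each of 4 groups, with libraries that count mRNA molecules at their 3′ ends. MC38, an established mouse colon carcinoma line, was injected subcutaneously at the right flank, not into the colon. The hosts were female C57BL/6 mice (genotype WT) with an intact immune system, bought at age 6 weeks and then acclimated. The tumors date from day 19. Con mice received vehicle (saline) with IgG2a, the isotype control antibody. SFIH mice received 50 mg/kg of SFIH by daily intraperitoneal injection, beside IgG2a, where SFIH stands for a fraction of Inula helenium rich in sesquiterpene lactones. PD mice received 200 μg of anti-PD-1 antibody 2 times a week, which blocks the inhibitory receptor PD-1 on T cells, and Comb mice received both agents at these doses. The labels call the material tumor cells, although the RNA was extracted from whole tumor tissue, so that fewer or more cells of a type and less or more RNA per cell cannot be told apart. Separate animals are not named for the replicates, and the p-values set group differences against the spread between these tumors.

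In the classical pathway, C1q binds antibody or a damaged surface and its partner proteases cut C4 and C2, whose fragments join into an enzyme that cuts C3. In the alternative pathway, factor B (Cfb) joins with C3 fragments into an enzyme that cuts more C3. The small fragments released from C3 and C5 act on C3ar1 and C5ar1 on myeloid cells. C1q is made in tissue mainly by macrophages, while C3 and C4 come from liver and, in tissues, also from fibroblasts and other stromal cells.

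The stretches upstream of the start site are shown for the gene pair of the C1q cluster, for C3, the central component, and for C5ar1, the gene chosen on its change. RefSeq entries on build GRCm38.p6 were found for 5 of the 9 genes (C1qb, C1qc, C3, C3ar1 and C5ar1), and each sequence is the 250 bases before the start, 5′ to 3′ on the gene's own strand. C1qb lies at chr4:136886201-136886450, C1qc at chr4:136892915-136893164, C3 at chr17:57228137-57228386 and C5ar1 at chr7:16259339-16259588, all on the minus strand. Bases downstream of the start were found in a GENCODE transcript of the same gene for C1qc, C3 and C5ar1 but not for C1qb, so the C1qb start rests on the RefSeq entry alone. Capitals mark the motif letters found.
C1qb: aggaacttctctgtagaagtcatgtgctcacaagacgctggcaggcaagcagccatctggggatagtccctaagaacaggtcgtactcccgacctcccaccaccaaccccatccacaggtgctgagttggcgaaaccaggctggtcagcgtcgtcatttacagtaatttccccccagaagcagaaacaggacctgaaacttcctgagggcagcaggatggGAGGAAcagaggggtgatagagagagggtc
C1qc: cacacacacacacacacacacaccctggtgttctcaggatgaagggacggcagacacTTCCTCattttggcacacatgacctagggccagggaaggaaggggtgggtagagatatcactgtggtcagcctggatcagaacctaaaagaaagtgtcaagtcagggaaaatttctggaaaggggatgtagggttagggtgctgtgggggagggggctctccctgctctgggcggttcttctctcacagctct
C3: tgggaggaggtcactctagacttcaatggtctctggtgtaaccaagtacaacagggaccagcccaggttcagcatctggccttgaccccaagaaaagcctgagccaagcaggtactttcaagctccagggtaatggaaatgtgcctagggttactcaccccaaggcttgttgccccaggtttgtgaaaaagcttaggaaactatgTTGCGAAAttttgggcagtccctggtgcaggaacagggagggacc
C5ar1: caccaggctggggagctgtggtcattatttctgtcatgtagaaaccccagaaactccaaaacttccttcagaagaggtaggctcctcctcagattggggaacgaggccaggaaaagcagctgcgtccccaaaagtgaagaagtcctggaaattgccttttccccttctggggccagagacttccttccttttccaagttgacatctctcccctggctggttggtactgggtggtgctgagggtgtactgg
The PU.1 core GAGGAA, a motif of myeloid genes, was searched on both strands, as were the C/EBP letters TTGCNNAA and the interferon response element, GAAA and GAAA parted by 2 bases. C1qb held GAGGAA from base -30 to base -25, and C1qc held it on the other strand from base -193 to base -188. C3 held TTGCGAAA, a C/EBP match, from base -45 to base -38. C3ar1 and C5ar1 held none of these letters in this window. Among 32851 promoter windows of the same length, 23.3% held GAGGAA, 9.56% held TTGCNNAA and 2.98% held the interferon response element, and the matches are given as a description only. In the RefSeq gene order, C1qb, C1qc and C1qa are direct neighbors on chromosome 4, Cfb and C2 are direct neighbors on chromosome 17 with C4b nearby, and C5ar1 has C5ar2 beside it on chromosome 7.

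Total counts were between 7870741 and 12261032 per tumor, and the scaling factors fitted by TMM were between 0.760 and 1.12. The lowest factor belonged to Comb replicate 3, which stood apart from the other tumors: its macrophage markers summed to 26075 CPM (counts scaled to a common library total) and its skeletal muscle markers to 6016 CPM. The Comb results for the 9 genes are therefore given with and without it. Among the carcinoma markers, Cdx2 was at or below 0.115 CPM in every tumor, and Epcam was between 0 and 0.301 CPM in the Con tumors. All levels below are CPM scaled by TMM, and all fold changes are on the log2 scale from edgeR.

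The C1q genes had the highest group means of the set, and their group means were in the order Con, SFIH, PD and Comb, with tumors far apart in Comb. C1qa, the A chain of C1q, was counted at 233, 139 and 263 CPM in the Con tumors and at 301, 239 and 258 CPM in the SFIH tumors. It stood at 261, 482 and 341 CPM in PD and at 269.7, 863 and 4378 CPM in Comb, replicates 1 to 3. Comb replicate 1 was 1.03-fold above the highest Con tumor, while Comb replicate 3 was 16.6-fold above it, so the Comb group spanned a 16.2-fold range.

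C1qb, the B chain, was at 180.4, 125 and 233 CPM in Con and at 279, 245 and 244 CPM in SFIH. In PD it was at 235, 497 and 304 CPM, and in Comb at 250.2, 1063 and 4814 CPM. Each treated group lay wholly above Con for C1qb, although Comb replicate 1 was only 1.07-fold above the highest Con tumor and PD replicate 1 lay next to it. When counts were scaled by library totals alone, without TMM, C1qb overlapped Con in all 3 treated groups. C1qc, the C chain, was at 125, 103 and 148 CPM in Con, at 162, 152 and 142 CPM in SFIH, at 157, 288.5 and 197 CPM in PD, and at 141, 614 and 1914 CPM in Comb. For C1qc, Comb replicate 1 and SFIH replicate 3 fell inside the Con range, while the PD tumors, scaled by TMM, lay above it.

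The ratios between the chains varied far less than their levels. C1qb stood at 0.774 to 1.23 times C1qa, and C1qc at 0.437 to 0.740 times C1qa, the lowest value being that of Comb replicate 3. Together the 3 genes took 0.0381% to 0.0720% of all counts in Con and 0.841% in Comb replicate 3.

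**Figure D1:**
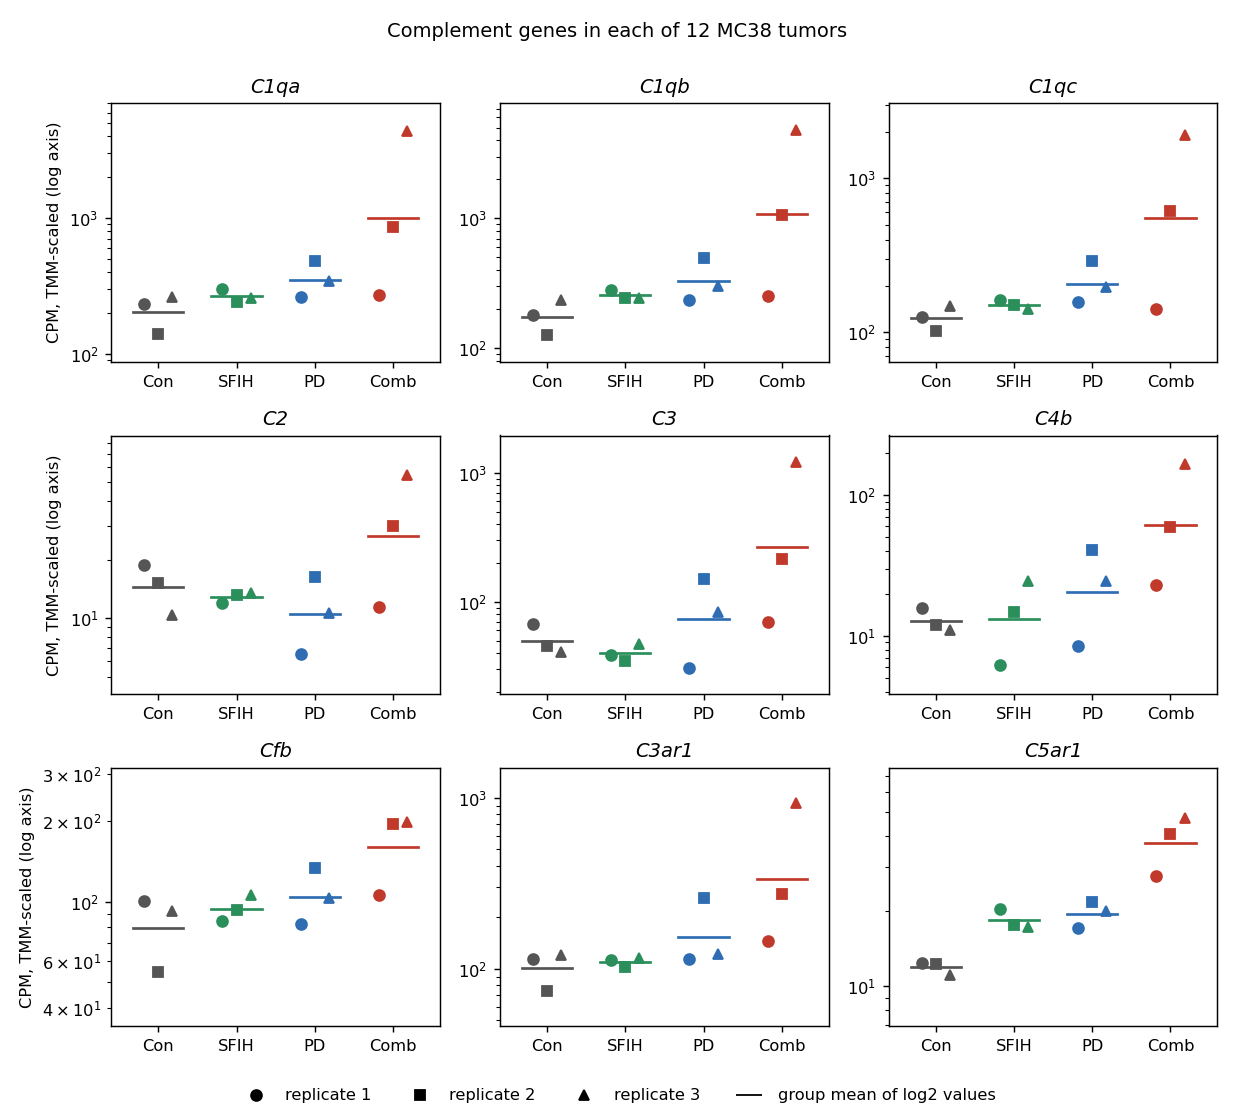
Each panel plots 1 complement gene in the 12 tumors as TMM-scaled CPM on a log axis, with a symbol per replicate and a line at the group mean of log2 values. C1qa reached 4378 CPM in Comb replicate 3 against 269.7 CPM in Comb replicate 1. C5ar1 was at 27.8 to 47.2 CPM in Comb, above all other tumors, but it was chosen on that change, so this is not a finding.

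The pair that forms the classical C3-cutting enzyme, C4b and C2, had lower levels than C1q, and both were highest in Comb replicates 2 and 3. C4b, the mouse C4 component, was at 15.9, 11.9 and 10.98 CPM in Con and at 6.18, 14.8 and 24.5 CPM in SFIH. Its levels were 8.54, 40.5 and 24.7 CPM in PD and 23.0, 59.5 and 166 CPM in Comb, so that all Comb tumors were above all Con tumors. C4a, a near-identical copy, held between 9.89% and 19.6% of the counts of both genes, and the split of counts between the copies is uncertain.

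C2, the protease component of that enzyme, was at 18.8, 15.3 and 10.4 CPM in Con, at 11.9, 13.2 and 13.4 CPM in SFIH, at 6.52, 16.2 and 10.7 CPM in PD, and at 11.4, 29.8 and 54.5 CPM in Comb. Its lowest count in any tumor was 61, in PD replicate 1. Comb replicate 1 lay inside the Con range, at 0.605 times the highest Con tumor, and Comb replicates 2 and 3 lay above every other tumor.

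C3, the central component that both pathways cut, was at 67.2, 45.1 and 40.6 CPM in Con and at 38.6, 34.8 and 46.8 CPM in SFIH. It was at 30.8, 151 and 83.9 CPM in PD and at 69.9, 214 and 1215 CPM in Comb. Comb replicate 3 was 18.1-fold above the highest Con tumor and 5.67-fold above Comb replicate 2, while Comb replicate 1 was only 1.04-fold above the highest Con tumor.

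Cfb, which encodes factor B of the alternative pathway, had the narrowest range of the genes other than C5ar1 in Comb. Its levels were 100.5, 54.6 and 91.9 CPM in Con, 84.5, 92.9 and 105 CPM in SFIH, 82.5, 134 and 103 CPM in PD, and 106, 196 and 198 CPM in Comb. Comb replicates 2 and 3 differed by 1.01-fold for Cfb, against 5.08-fold for C1qa. Reads of C2 and Cfb, which are related neighbors, were counted separately by the authors, and C2 stood at 0.0790 to 0.279 times Cfb.

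C3ar1, the receptor of the C3a fragment, was at 115, 73.9 and 120 CPM in Con, at 113, 102 and 116 CPM in SFIH, at 114, 260.2 and 122 CPM in PD, and at 145, 275 and 938 CPM in Comb. All Comb tumors were above all Con tumors, and the SFIH and PD groups overlapped with Con.

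C5ar1, the receptor of the C5a fragment on neutrophils and macrophages, varied little within each group. It was at 12.5, 12.2 and 11.1 CPM in Con, at 20.4, 17.7 and 17.3 CPM in SFIH, at 17.1, 21.8 and 20.0 CPM in PD, and at 27.8, 41.0 and 47.2 CPM in Comb. The order of the groups was Con, then SFIH and PD, which overlapped with each other, then Comb, with no other overlap. The Comb tumors spanned a 1.70-fold range for C5ar1, the smallest among the 9 genes in that group. As C5ar1 was chosen on its change in Comb, its separation there is not a finding.

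Against Con, SFIH alone was set out to show what the plant fraction does without the antibody. No gene passed an adjusted p of 0.05 in edgeR (0% of 13464), while 303 genes (2.25%) had an unadjusted p under 0.05 and DESeq2 called 4 (0.0298%). As C5ar1 was chosen against these same Con tumors, it is given without a test here too. None of the other 8 genes was called by edgeR or by DESeq2, and none had an unadjusted p under 0.05. The median log2 fold change was 0.22 over the 9 genes, C5ar1 included, and 0.02 over all genes tested, and 7 of the 9 were positive. C1qb differed by 0.51 (SE 0.75), C1qa by 0.33 (SE 0.72), C1qc by 0.28 (SE 0.64) and C3 by -0.35 (SE 0.82). The other changes were -0.20 for C2, 0.22 for C4b, 0.20 for Cfb and 0.10 for C3ar1, each smaller than its standard error. C5ar1 stood at 0.63 (SE 0.22). Of the 8 genes tested, C1qb was the 1 with all SFIH tumors above all Con tumors, beside 8.55% of all genes tested.

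PD alone against Con asks the same of the antibody. Again no gene was called by edgeR (0%), 537 genes (3.99%) had an unadjusted p under 0.05, and DESeq2 called 6 (0.0447%), none of them a complement gene of the set. The median log2 fold change was 0.77 over the 9 genes, C5ar1 included, and 0.01 over all genes. Of the 9 genes, 8 were positive, and C2 was at -0.42 (SE 0.49). C1qb differed by 0.94 (SE 0.75), C4b by 0.92 (SE 0.72), C3 by 0.80 (SE 0.82), and C1qa and C1qc by 0.77 each (SE 0.73 and 0.64). C3ar1 was at 0.68 (SE 0.57) and Cfb at 0.37 (SE 0.30). None of these 8 genes had an unadjusted p under 0.05. C5ar1 stood at 0.72 (SE 0.22), given without a test. Of the 8 genes tested, C1qb and C1qc were the 2 without overlap, beside 9.42% of all genes.

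The positive values in PD leaned on PD replicate 2, which had the highest PD level of all 9 genes. Without it the median over the 9 genes was 0.36, with C3 at 0.17 and C3ar1 at 0.20, and C5ar1 stayed at 0.64 (SE 0.24). The SFIH and PD comparisons use the same 3 Con tumors, which also served where C5ar1 was chosen.

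Comb against Con held the largest difference of each gene of the set other than C2. edgeR called no gene at an adjusted p of 0.05 (0%), although 3406 genes (25.3%) had an unadjusted p under 0.05, and DESeq2 called 1998 (14.9%). The 8 genes that could be tested all had an unadjusted p under 0.05, and DESeq2 called 7 of them higher in Comb, all but C2. The median log2 fold change was 2.67 over the 9 genes, C5ar1 included, and -0.03 over all genes.

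C1qb differed most, by 3.51 (SE 0.82, adjusted p = 0.0665 in edgeR and 0.00012 in DESeq2). C3 followed at 3.29 (SE 0.89, adjusted p = 0.0703 and 0.000953), C1qa at 3.12 (SE 0.78, 0.0671 and 0.000521) and C1qc at 2.83 (SE 0.69, 0.0665 and 0.0005). These differences correspond to 11.4-, 9.80-, 8.67- and 7.09-fold. C4b was at 2.67 (SE 0.75, 0.0735 and 0.00311), C3ar1 at 2.14 (SE 0.59, 0.0717 and 0.00362) and Cfb at 1.02 (SE 0.30, 0.0789 and 0.0168). C2, at 1.10 (SE 0.49), passed neither tool (adjusted p = 0.189 in edgeR and 0.119 in DESeq2). C5ar1 stood at 1.69 (SE 0.22), given without a test. In all 3 Comb tumors against all 3 Con tumors, 6 of the 8 genes did not overlap, beside 11.7% of all genes, the exceptions being C1qc and C2. Without TMM, C1qa and C1qb overlapped as well, which left 4 of the 8, beside 7.6% of all genes.

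**Figure D2:**
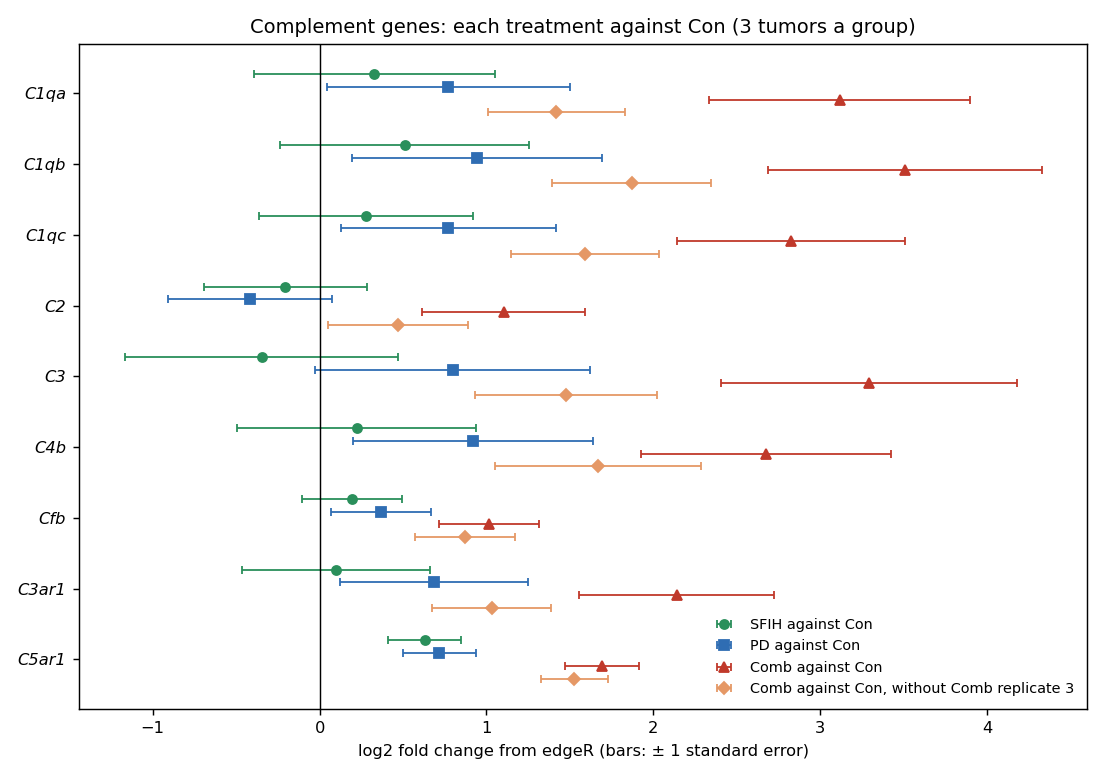
The log2 fold change of each gene against Con is drawn with bars of 1 standard error from edgeR for SFIH, PD and Comb, and for Comb without replicate 3. Leaving that tumor out moved C1qa from 3.12 to 1.42 and C3 from 3.29 to 1.48. C5ar1, which was chosen on its change in Comb, moved from 1.69 to 1.53.

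For the C1q genes, C3, C4b, C3ar1 and C2, the size of these differences rested on Comb replicate 3. Without it the median over the 9 genes was 1.48, with C1qb at 1.87 (SE 0.48), C4b at 1.67 (SE 0.62), C1qc at 1.59 (SE 0.44), C3 at 1.48 (SE 0.54) and C1qa at 1.42 (SE 0.41). C3ar1 was then at 1.03 (SE 0.36), Cfb at 0.87 (SE 0.30) and C2 at 0.47 (SE 0.42), with C5ar1 at 1.53 and, for the 8 genes tested, edgeR adjusted p between 0.102 and 0.578. DESeq2 then called 2 of the 8, C1qa and C1qb, beside 5.44% of all genes. Comb replicate 1 bore on the calls in the other direction: without it edgeR called 8 of 8 genes, beside 28.5% of all genes, with C1qb at 4.03 (SE 0.55, adjusted p = 0.00307) and C2 at 1.51 (SE 0.38, adjusted p = 0.0177).

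Comb against PD asks what SFIH adds to the antibody. edgeR called no gene (0%), 2424 genes (18%) had an unadjusted p under 0.05, and DESeq2 called 415 (3.09%). The median log2 fold change was 1.75 over the 9 genes, C5ar1 included, and -0.00 over all genes. Of the 8 genes tested, 7 had an unadjusted p under 0.05 and DESeq2 called 4, C1qa, C1qb, C1qc and C3. C1qb was at 2.57 (SE 0.79), C3 at 2.50 (SE 0.86), C1qa at 2.35 (SE 0.76) and C1qc at 2.05 (SE 0.67), with DESeq2 adjusted p from 0.029 to 0.0482 and an edgeR adjusted p of 0.243 for each. C4b was at 1.75 (SE 0.72), C2 at 1.52 (SE 0.50), C3ar1 at 1.45 (SE 0.57) and Cfb at 0.65 (SE 0.30), none of them called by either tool.

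None of the 8 genes had all Comb tumors above all PD tumors, beside 6.16% of all genes, because Comb replicate 1 lay within or below the PD range for each of them. C5ar1, the chosen gene, did not overlap and differed by 0.98 (SE 0.22), given without a test. Without Comb replicate 3 the median over the 9 genes was 0.75. C1qb was then at 0.93 (SE 0.47), C2 at 0.89 (SE 0.42), C1qc at 0.82 (SE 0.44), C4b at 0.75 (SE 0.61), C3 at 0.68 (SE 0.54), C1qa at 0.65 (SE 0.41), Cfb at 0.50 (SE 0.30) and C3ar1 at 0.35 (SE 0.36), C5ar1 stood at 0.81, and the edgeR adjusted p of the 8 genes were between 0.551 and 0.781. DESeq2 then called 0 of the 8 and 23 genes in all (0.176%). Without Comb replicate 1 edgeR called 7 of 8, all but Cfb (adjusted p = 0.0506), beside 15.2% of all genes. Without PD replicate 2 the median over the 9 genes was 2.29 and C3 was at 3.10 (SE 1.02).

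The interaction term, which asks whether Comb differs from Con by more than SFIH and PD added together on the log2 scale, passed for no gene in edgeR (0%). At an unadjusted p under 0.05 there were 344 genes (2.55%), and DESeq2 called 1 (0.00745%). C3 had the largest interaction of the set at 2.84 (SE 1.18, unadjusted p = 0.034), and C2 was at 1.72 (SE 0.70, unadjusted p = 0.0304). These were the 2 of 8 genes with an unadjusted p under 0.05, and the adjusted p was 0.894 in edgeR for all 8. C1qb was at 2.05, C1qa at 2.02, C1qc at 1.78, C4b at 1.53, C3ar1 at 1.35 and Cfb at 0.45. The C5ar1 value was 0.35 (SE 0.31), given without a test. The median over the 9 genes, C5ar1 included, was 1.72 against -0.03 over all genes, and 0.42 without Comb replicate 3. Without that tumor C3 was at 1.03 (SE 0.74) and C2, at 1.09 (SE 0.57), was the largest of the set. The others, C5ar1 included, were then between 0.18 and 0.54. Without Comb replicate 1, C3 was at 3.37 (SE 0.93), with edgeR adjusted p from 0.238 to 0.335 for the 8 genes. In that fit 2384 of 13856 genes had an unadjusted p under 0.05. Without PD replicate 2, C3 was at 3.44 (SE 1.27, edgeR adjusted p = 0.810).

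Around these 9 genes, a list of 48 other complement genes was taken, of which 47 were in the table and 24 were abundant enough to test. Of the others, 10 had at most 3 counts in every tumor. No list gene was called by edgeR in any of the 5 comparisons, and by DESeq2 none was called for SFIH, PD or the interaction. At an unadjusted p under 0.05 in edgeR there were 0 list genes for SFIH (2.25% of all genes), 2 for PD (3.99%), 15 for Comb against PD (18%) and 6 for the interaction (2.55%). In Comb against Con, 22 of 24 were positive, 18 had an unadjusted p under 0.05, all of them higher, beside 25.3% of all genes in either direction. DESeq2 called 15 higher and none lower, beside 14.9% of all genes, a share that also stands behind the counts by role below. The list median was 2.24 in Comb against Con, 1.56 in Comb against PD, 0.35 in PD and 0.03 in SFIH. Without Comb replicate 3, 26 list genes were tested, 24 were positive against Con and the median was 1.20, and against PD it was 0.62. DESeq2 then called 7 list genes against Con, beside 5.44% of all genes, and 0 against PD, beside 0.176%. In edgeR, 10 and 3 list genes then had an unadjusted p under 0.05, beside 2562 and 1228 of the 13621 genes tested. Without PD replicate 2 the median in PD was 0.04, with 15 of 27 list genes positive, and in Comb against PD it was 2.24.

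Among the proteases and lectins that start the cascade, 6 were tested, and DESeq2 called 5 higher in Comb than in Con. Without Comb replicate 3, DESeq2 called 1 of 7. C1s1, the protease that C1q activates to cut C4 and C2, was at 21.0, 18.2 and 19.9 CPM in Con and 23.6, 77.5 and 214 CPM in Comb, a log2 fold change of 2.42 (SE 0.63). In the alternative pathway, Cfp, which encodes properdin, a stabilizer of the C3-cutting enzyme, was at 28.6, 21.3 and 29.1 CPM in Con and 48.8, 166 and 1051 CPM in Comb. Its log2 fold change was 4.0 (SE 0.93), and DESeq2 called it. Cfd, the factor D protease that adipocytes make, ranged from 0.446 to 14.5 CPM in Con, was at 5.34, 127 and 162 CPM in Comb, and was not called by DESeq2 (adjusted p = 0.0798).

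Of 7 terminal pathway genes only 3 were tested, and C6, a pore component, was the 1 that DESeq2 called in Comb against Con. Hc, which encodes C5, the source of the C5ar1 ligand, was at 2.11, 2.21 and 1.96 CPM in Con and 1.17, 3.45 and 15.2 CPM in Comb, and neither tool called it. Of 18 regulators 8 were tested, and DESeq2 called 4 higher in Comb than in Con, but 2 of 8 without Comb replicate 3. Cd59a, which blocks the pore, had the smallest p of the list in that comparison (0.000295, adjusted 0.0665, edgeR), at 3.65 (SE 0.71), with 3.77, 2.91 and 3.30 CPM in Con and 7.77, 34.5 and 83.4 CPM in Comb. Serping1, the inhibitor of the C1 proteases, differed by 3.02 (SE 0.73). Clu was at -0.24 (SE 0.46) and Cpn1 at -1.68 (SE 1.03), the 2 negative list genes, and neither was called.

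Among 5 receptors tested, DESeq2 called 4 higher in Comb than in Con, but 2 of 6 without Comb replicate 3. Itgam and Itgb2, the chains of complement receptor 3, differed by 1.90 (SE 0.40) and 2.66 (SE 0.53), and C5ar2, the other C5a receptor, by 2.37 (SE 0.71). In SFIH against Con, Itgb2 had the smallest p of the list, 0.172 in edgeR, at 0.74 (SE 0.51). In PD against Con, Itgam (0.92, SE 0.39) and Itgb2 (1.14, SE 0.51) were the 2 list genes with an unadjusted p under 0.05, at 0.0382 and 0.0475 in edgeR. Comb against PD gave 4 DESeq2 calls on the list, beside 3.09% of all genes, among them Cd59a at 2.94 (SE 0.68) and C1s1 at 2.18 (SE 0.63). Without Comb replicate 3 the differences from Con were 1.40 for Itgam, 1.80 for Itgb2, 1.32 for C5ar2, 2.66 for Cd59a, 2.41 for Serping1, 1.36 for C1s1 and 2.03 for Cfp. DESeq2 then called all of these but C5ar2 against Con. Against PD, Cd59a was then at 1.96 and C1s1 at 1.13, and DESeq2 called neither.

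**Figure D3:**
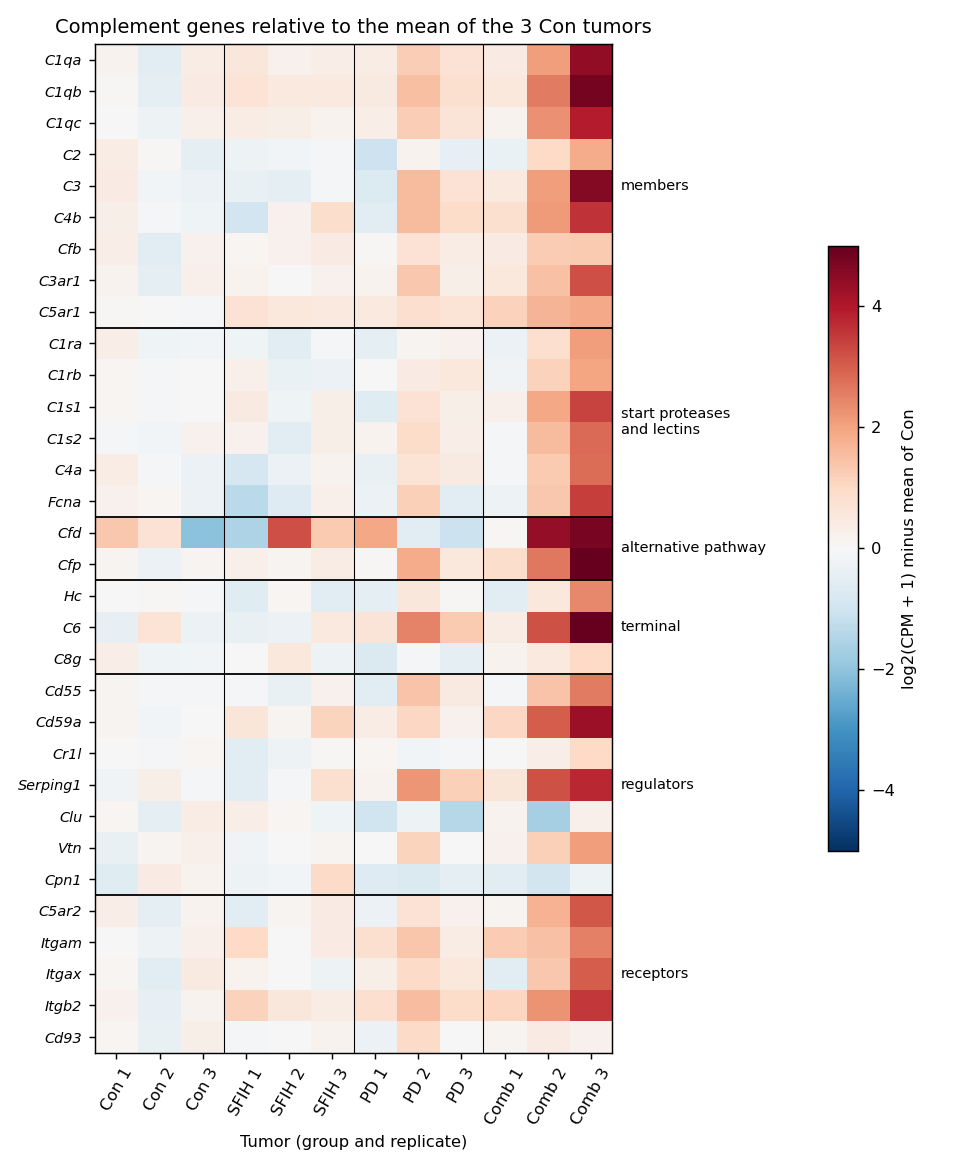
Rows are the 9 genes and other complement genes tested, columns are the 12 tumors, and color is log2(CPM + 1) minus the mean of the Con tumors, with the scale ending at 5 in each direction. The Comb replicate 3 column is red in most rows, and the Comb replicate 1 column is pale in most rows. C5ar1, which was chosen on its change in Comb, is pale red in all 9 treated tumors.

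Markers of several other cell types were highest in Comb replicate 3, as were the complement genes: 14 of 14 macrophage, 8 of 8 skeletal muscle, 6 of 9 fibroblast, 6 of 8 epithelial, 5 of 7 T cell and 5 of 7 adipocyte genes. The sum of 14 macrophage markers was 1810, 1006 and 1792 CPM in Con, 1388, 1558 and 1622 CPM in SFIH, 2258, 5274 and 3284 CPM in PD, and 1925, 8738 and 26075 CPM in Comb. The summed C1q level stood at 0.240 to 0.535 times this marker sum over the 12 tumors, at 0.298 to 0.365 in Con and 0.291 to 0.426 in Comb. The SFIH ratios, 0.397 to 0.535, all lay above those of Con, and the PD ratios, 0.240 to 0.289, all lay below. Apoe and Ctss carried most of the marker sum, at 10332 and 9856 CPM in Comb replicate 3. Summed C1q itself ran from 367 CPM, in Con replicate 2, to 11106 CPM, in Comb replicate 3. The part of macrophage content in these differences was not tested.

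Set against single macrophage genes, the ratios depended on the gene chosen. C1qa stood at 5.04 to 8.59 times Adgre1, which encodes F4/80, in the 12 tumors. Against Csf1r, the receptor for macrophage growth factor, it stood at 4.49 times in Comb replicate 3 and at 1.28 to 2.50 times in the other 11 tumors. The C1qa to Adgre1 ratios of SFIH (5.88 to 8.56) and PD (5.32 to 8.59) overlapped those of Con (6.13 to 7.96). Against Csf1r, SFIH (1.80 to 2.50) overlapped Con (1.76 to 2.35) and PD (1.41 to 1.70) lay below. Against Cd68, SFIH (4.79 to 5.17) lay above Con (2.91 to 4.52) and PD (4.28 to 5.69) overlapped it. C5ar1 stood at 0.328 to 0.689 times Adgre1 in Con, and at 0.575, 0.239 and 0.0674 times in Comb replicates 1 to 3. C3ar1 stood at 3.02 to 4.16 times Adgre1 in Con and at 3.01, 1.61 and 1.34 times in Comb. Against Csf1r, C3ar1 was at 0.865 to 1.25 times in Con and at 0.838, 0.409 and 0.962 times in Comb, so that Comb replicate 3 lay inside the Con range. C5ar1 was at 0.0911 to 0.207 times Csf1r in Con and at 0.160, 0.0609 and 0.0484 times in Comb.

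Fibroblast markers, 9 genes, summed to 2176, 2495 and 2671 CPM in Con, 1055, 2371 and 3584 CPM in SFIH, 4153, 6875 and 5635 CPM in PD, and 2952, 11815 and 23135 CPM in Comb. The collagen genes and Dcn carried this sum. Pdgfra (log2 fold change of -0.27, SE 0.35, Comb against Con) and Pdgfrb (-0.74, SE 0.39) of the same list were not higher, and Pdgfrb was lower in all Comb than in all Con tumors. The ratio of C3 to Dcn lay between 0.0515 and 0.144 for Con and between 0.149 and 0.204 for Comb, and the SFIH (0.0842 to 0.250) and PD (0.0418 to 0.281) ranges reached above that of Comb. The sums of the other lists were also highest in Comb replicate 3, where T cell markers summed to 321 CPM against 22.0 to 33.3 in Con, adipocyte markers to 154 against 8.43 to 13.5, and epithelial markers to 116 against 6.52 to 8.86. The neutrophil list summed to 941 CPM there against 32.4 to 91.5 in Con, of which Retnlg gave 908 CPM, and only 3 of its 9 genes in the table were highest there. S100a8 and S100a9 were at 8.42 and 5.41 CPM in that tumor, against 10.7 to 39.3 and 13.0 to 41.6 in Con. Csf3r went the other way at low levels, from 0.0893 to 0.401 CPM in Con to 1.55, 1.73 and 2.41 CPM in Comb. Cxcr2 differed by 0.12 (SE 0.56) in Comb against Con. Of the granule genes, Mpo and Camp were at or below 0.691 CPM in every tumor, Ltf was at 10.6 CPM in Comb replicate 3 and at most 1.23 elsewhere, and Mmp8 was highest in PD replicate 2 (12.5 CPM). Skeletal muscle markers did not follow the complement genes and summed to 595 CPM in Comb replicate 1, 4.95 in Comb replicate 2 and 6016 in Comb replicate 3. The part of these cell types in the complement values was not tested.

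**Figure D4:**
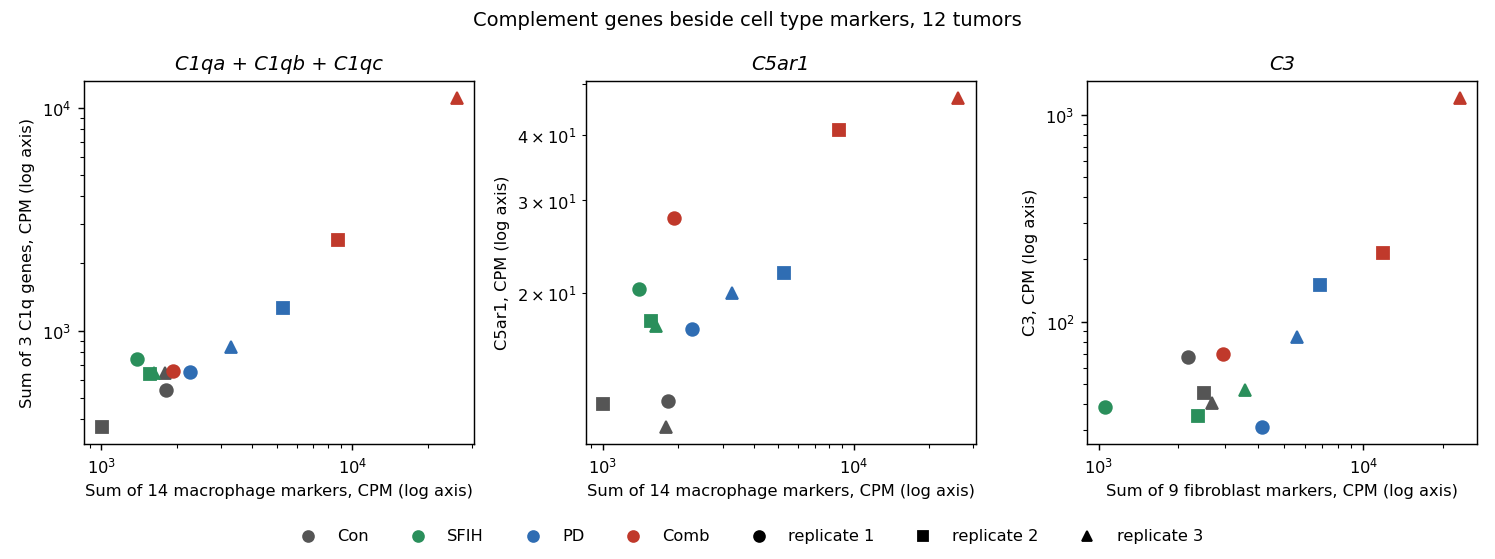
Each point is 1 tumor, with the summed C1q level and C5ar1 plotted against the sum of 14 macrophage markers and C3 against the sum of 9 fibroblast markers, all in TMM-scaled CPM on log axes. Summed C1q runs from 367 to 11106 CPM along with the macrophage sum, and C5ar1 from 11.1 to 47.2 CPM.

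The genes most like each course were found by Pearson's r of log2(CPM + 1) over the 12 tumors, as a description. C1qa was followed most closely by C1qb (r = 0.996), Tyrobp (0.996), Tbxas1 (0.993), Tnfsfm13 (0.993) and Acp2 (0.992), and these were between 0.970 and 0.990 without Comb replicate 3. C3 was followed by Itih5 (0.989), Cd24a (0.985), Alox5 (0.984), E230029C05Rik (0.983) and Lama2 (0.982), which were between 0.946 and 0.967 without that tumor. C5ar1 was followed by Chil3 (0.974), St3gal5 (0.968), Emc9 (0.957), Podn (0.956) and Zswim6 (0.955), which were between 0.932 and 0.977 without it.

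Within the set, the C1q genes lay closest to each other, at r = 0.989 to 0.996, and C3ar1 was at 0.979 with C1qa. C3 and C4b were at 0.946, and 0.897 without Comb replicate 3. C1qa and C2 were at 0.817, which was 0.501 without Comb replicate 3, and C1qa and C5ar1 were at 0.839 and 0.801. All these points share their libraries and the spread between groups.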

How the data were processed

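RNA from 12 MC38 tumors was made into QuantSeq 3′ libraries and read on a NextSeq 500 as single-end reads. The authors deposited a table of raw counts per gene symbol, 1 column per tumor. The aligner, the counting tool, the build and the annotation are not given in the sources used here. Columns were assigned to the 4 groups from their names and the labels, and 0 columns of other samples were present. The table holds 23282 entries, of which 46 repeat an earlier symbol. Rn45s, a ribosomal RNA gene, took 4.28% to 17.1% of the counts. Depth was 7870741 to 12261032 counts per tumor (median 9932321), and 3′ counts do not grow with gene length. None of the replicates was a copy of another by a chi-square comparison of counts.

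From these counts, edgeR 4.0.16 (R 4.3.3) was used with filterByExpr, TMM factors and quasi-likelihood tests in 1 fit of all 12 tumors, two-sided, with Benjamini-Hochberg adjustment over 13464 genes and a threshold of 0.05. DESeq2 1.42.0 was the alternative tool. Levels are TMM-scaled CPM, and correlations used log2(CPM + 1). A permutation test of 3 against 3 tumors cannot go below p = 0.1, so none was used. The fits were tested on simulated data.

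The 9 members, the complement list, the marker lists and the tests were chosen with earlier results of these data known. Named were the 9 members, up to 3 other complement genes per comparison and direction by smallest p, genes of each complement group by count, the 5 genes most correlated with C1qa, C3 and C5ar1, and near-identical or neighboring copies. C5ar2, Cfd, Cfp, C6, Hc and Serping1 were named after their values were seen. C5ar1 was planned to be tested in SFIH and PD against Con, but no p is given, because it was chosen against the same Con tumors. Some items that the rule covers are not reported here. Replicate numbers were checked as pairs over 18 same-number pairs (r from -0.288 to 0.409) and did not pair the tumors. Other scalings, filters, fits and leaving out each tumor were tried.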

Additional observations from a re-analysis of the deposited data

How the results depend on the processing

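Under DESeq2 the counts of genes called were 4 for SFIH, 6 for PD, 1998 for Comb against Con, 415 for Comb against PD and 1 for the interaction, where edgeR called 0 in each. For the complement list DESeq2 called 15 and 4 genes in the 2 Comb comparisons, and for the complement genes of the set 7 and 4 of 8. With Comb replicate 3 left out, a fit chosen after seeing the data, DESeq2 called 740 genes and 2 of the 8 against Con, and 23 genes against PD. Leaving out each tumor in turn, edgeR called 0 to 3943 genes for Comb against Con and 0 to 2100 for Comb against PD, the highest without Comb replicate 1. The list ranged from 0 to 22 and 0 to 15 calls, and the set from 0 to 8 and 0 to 7. With 1 tumor left out, those of the 8 genes other than C5ar1 without overlap numbered 1 to 3 for SFIH (1 with all tumors), beside 12.9% to 15.5% of all genes. They numbered 2 to 7 for PD (2 with all tumors), with 7 without PD replicate 1 beside 14.4%, and 6 to 8 for Comb against Con (6 with all tumors), with 8 without Comb replicate 1 beside 26.2%. For Comb against PD they numbered 0 to 8, with 8 without Comb replicate 1 beside 22.2% and 3 without PD replicate 2 beside 14.8%. Without TMM they numbered 0 for SFIH and 0 for PD, beside 7.55% and 5.76%, since C1qb and, in PD, C1qc then overlapped Con, and 4 for Comb against Con. Directions turned only for small SFIH values, with Cfb from -0.039 to 0.36, C3ar1 from -0.10 to 0.22 and C4b from -0.30 to 0.59 with 1 tumor left out.

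With the replicate number as a replicate block, C4b in SFIH was at -0.18, and edgeR called 0 genes of the set in every comparison, as without the block. By the check of same-number pairs, 6 of 18 had r over 0.1 and 2 of 12 tumors correlated best with their own number. Fits of only the compared groups changed the shares of all genes at an unadjusted p under 0.05. They gave 1415 of 12784 genes for SFIH and 1609 of 12670 for PD. For Comb they gave 1690 of 12860 against Con and 675 of 12889 against PD. Without TMM the median of all genes moved to -0.29 for Comb against Con, -0.16 for Comb against PD and -0.20 for the interaction, and the directions of the set's genes there did not change. The standard errors of the 9 genes in SFIH or PD against Con were 0.22 to 0.82, which bounds the differences these tumors can show, and the lowest count of any of the 9 genes was 61.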
